A study of Mus musculus with 25 samples.

Results

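The genes described here encode potassium channels, their auxiliary subunits and the hyperpolarization-activated HCN channels. They were taken by symbol (Kcn followed by letters and a number, and Hcn with a number from 1 to 4), with Kcnj10 left out. Of 92 genes with such a symbol on the array, 80 had a mean above 4.5 on the log2 intensity scale. They are 80 of the 20461 genes above that limit, out of 30142 genes with a probe set that names 1 gene. The 80 comprise 13 voltage-gated pore subunits, 8 silent voltage-gated subunits, 11 auxiliary subunits, 7 genes of the Kcnh group and 3 of the Kcnq group. The others are 12 genes of calcium- and sodium-activated channels, 10 inward rectifiers, 12 tandem-pore (K2P) channels, 3 HCN channels and the noncoding Kcnq1ot1. Just inside the limit were Kcns2, with a mean of 4.509, and Kcne3, with 4.533, and just outside it was Kcnj4, with 4.495.

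Expression was measured in L3 to L5 dorsal root ganglia, which hold the cell bodies of sensory neurons of the hind limb, from male C57BL/6 mice. The medial meniscus of the right knee had been destabilized by surgery (DMM), which models osteoarthritis of the joint, or the knee had been sham-operated, when the mice were 10 weeks old. Naive mice had no treatment. Collection was 4, 8 or 16 weeks later, when mice were 14, 18 or 26 weeks old, and naive mice were matched to those ages. There were 3 arrays in each of 8 groups and 1 array of sham mice at 8 weeks, since the other samples of that group failed the submitters' quality control. The labels do not say how many mice gave an array or from which side the ganglia came, so p-values measure the spread between these samples, which may be technical. Within the operated mice, time after surgery and age cannot be told apart.

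Potassium channels set the resting potential of a sensory neuron and end its action potentials. Voltage-gated channels of the Kcna, Kcnb, Kcnc and Kcnd groups repolarize the membrane, Kcnq channels carry the slow M current that damps repeated firing, and K2P channels carry background current. HCN channels pass an inward current on hyperpolarization and favour repetitive firing, and loss of potassium channel expression in ganglia is well known after injury of a peripheral nerve.

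The mean of 20 sensory neuron markers lay between 14.64 and 14.93 on every array, and Scn10a, a sodium channel of nociceptors, between 16.03 and 16.67. Within groups, arrays correlated at 0.993 to 0.998 over the genes tested. Of the 80 channel genes, 66 had a mean above the highest array median of the negative control probe sets (5.06 to 5.35 across arrays) and 14 did not, so a gene among the 14 may lie at background. The 14 are Kcns2, Kcne2, Kcne3, Kcne4, Kcnab3, Kcnj6, Kcnj8, Kcnj11, Kcnj14, Kcnj15, Kcnk6, Kcnk16, Kcnq1 and Kcnu1, and differences of these genes are differences of a signal near background. A list of 21 genes induced in injured sensory neurons differed between arrays. Its mean was 9.67 to 9.86 on the 3 naive arrays at 4 weeks. It was 9.65 on 1 DMM array at 4 weeks, 9.86 on 1 DMM array at 8 weeks, 9.49 on 1 sham array at 4 weeks and 9.57 on the sham array at 8 weeks. On the other arrays it lay between 8.16 and 8.92. The injury-induced gene Sprr1a was at 5.32 to 6.36 in naive mice at 16 weeks, against 13.02 to 13.11 in naive mice at 4 weeks. The youngest naive group thus stood apart from the older naive groups in these genes.

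Between DMM and naive mice, no channel gene passed the test at 4, 8 or 16 weeks or on average over the times. The test was limma's moderated test with Benjamini-Hochberg adjustment over all 20461 genes and a threshold of 0.05. In the whole table, 0.00977% of genes passed at 4 weeks, 0.0489% at 8 weeks, 0.0147% at 16 weeks and 0.044% on average. At an unadjusted p under 0.05 there were 5 higher and 3 lower at 4 weeks, where 2.26% and 6.53% of all genes were higher and lower. There were 3 higher and 1 lower at 8 weeks (3.13% and 5.31% of all genes), 0 higher and 6 lower at 16 weeks (3.39% of all genes lower) and 1 lower on average (4.28% of all genes). The median difference of the 80 genes was 0.02, 0.02 and -0.06 at 4, 8 and 16 weeks, against -0.03, -0.00 and 0.01 for all genes. Because ganglia were measured whole, fewer cells of a type and less RNA per cell cannot be told apart in any of these values.

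At 16 weeks the channel genes were mostly at lower values in DMM than in naive mice, without any passing the test. Of the 80, 57 were lower and 23 higher, while 52.9% of all genes were higher. Among the voltage-gated pore subunits 11 of 13 were lower, with a median difference of -0.20. Among the calcium- and sodium-activated channels 10 of 12 were lower (median -0.10), and the 3 HCN genes were lower (median -0.09). For 9 channel genes every DMM array lay below every naive array at 16 weeks, as it did for 5.39% of all genes, and for 0 channel genes did every DMM array lie above (6.59% of all genes). Set against sham mice at 16 weeks the same 80 genes had a median of 0.01 (all genes -0.01), with 45 higher and 35 lower (44.8% of all genes higher), and 7 of the 13 voltage-gated pore subunits were higher. Sham against naive mice at 16 weeks had 50 of the 80 lower, while 57.2% of all genes were higher. There 11 of the 13 voltage-gated pore subunits were lower (median -0.115). So were 10 of the 12 calcium- and sodium-activated channels (median -0.074) and the 3 HCN genes (median -0.033). Sham and DMM groups share the naive arrays as controls, so their differences from naive mice are not independent of each other.

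**Figure D1:**
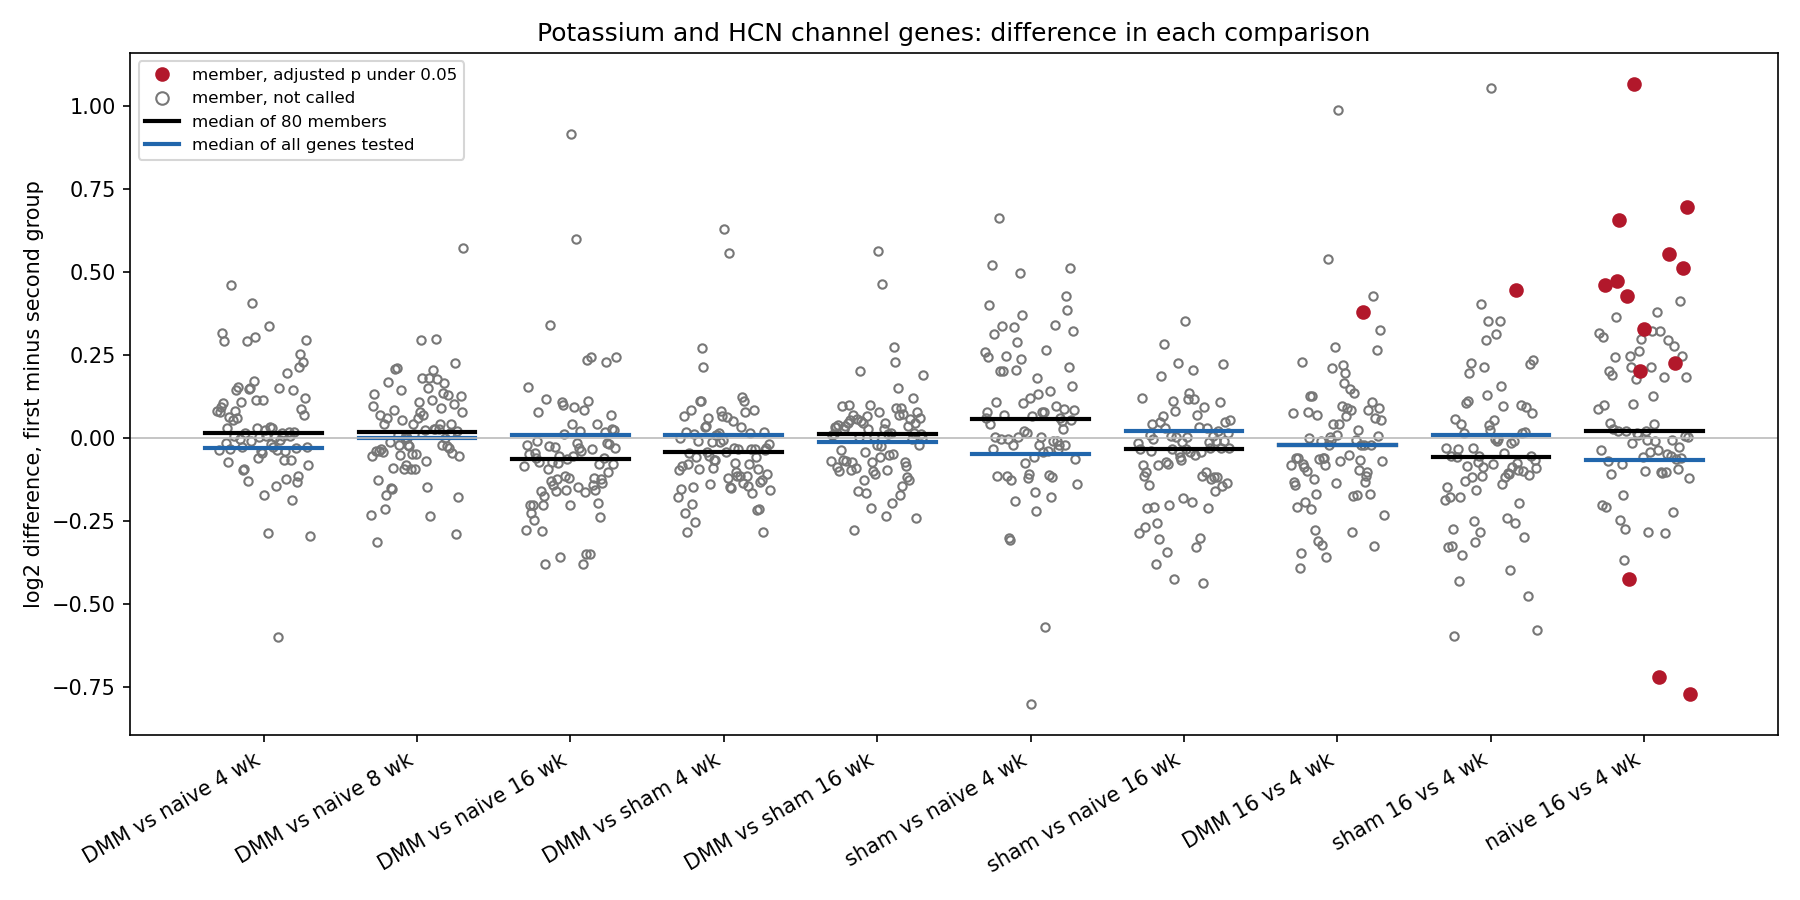
Log2 differences of the 80 channel genes (vertical axis) in 10 comparisons (horizontal axis), each as first minus second group named. Filled points passed the test at an adjusted p under 0.05, open points did not, and bars mark the median of the 80 genes (black) and of all genes tested (blue). The filled points stand in the 3 comparisons of 16 with 4 weeks, 11 above and 3 below 0 in naive mice and 1 above 0 each in sham and DMM mice.

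Of the channel genes at 16 weeks, the smallest p between DMM and naive mice belonged to Kcnk18, a K2P channel of nociceptors known from human migraine genetics. Kcnk18 was at 6.18, 6.32 and 6.58 in DMM mice, against 6.66, 6.66 and 6.80 in naive mice. The groups did not overlap, and the difference of -0.35 ± 0.12 (SE, n = 3 each) had an adjusted p of 0.4883 in limma. Hcn3, an HCN channel with slow kinetics, was at 6.85, 7.05 and 7.22 in DMM mice, against 7.27, 7.32 and 7.36 in naive mice (difference -0.28 ± 0.11, adjusted p = 0.5313). Sham mice at 16 weeks had values close to those of DMM mice for these genes, 6.25, 6.46 and 6.52 for Kcnk18 and 6.91, 7.02 and 7.17 for Hcn3. The values of both genes at 16 weeks were thus highest in the naive group. At 4 weeks Kcnk18 was at 6.35 to 6.76 in DMM mice and 6.52 to 6.81 in sham mice, against 6.23 to 6.54 in naive mice, where the lowest value was naive. Hcn3 at 4 weeks was at 6.77 to 7.08 in DMM mice and 6.88 to 7.28 in sham mice, against 6.97 to 7.04 in naive mice, with overlap. The other genes of smallest p in this comparison were the inward rectifier Kcnj12 (-0.20 ± 0.07, adjusted p = 0.5037), Kcnip3 (-0.16 ± 0.06, adjusted p = 0.5037) and the small-conductance channel Kcnn1 (-0.24 ± 0.11, adjusted p = 0.5605).

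At 4 weeks, DMM minus naive was -0.60 ± 0.14 for the K2P channel Kcnk16 (adjusted p = 0.2888), 0.32 ± 0.11 for Kcna2 (0.414), 0.46 ± 0.17 for Kcnb2 (0.4606), -0.19 ± 0.08 for the BK channel subunit Kcnmb4 (0.5102) and 0.29 ± 0.13 for Kcng3 (0.519). At 8 weeks it was 0.57 ± 0.16 for Kcnv1 (adjusted p = 0.2074), 0.23 ± 0.09 for Kcnq5 (0.4457), -0.31 ± 0.14 for Kcna3 (0.5504), 0.30 ± 0.14 for Kcnj16 (0.5635) and -0.23 ± 0.12 for Kcnk13 (0.6104). None of these passed. The injury list had a median difference of -0.58 between DMM and naive mice at 4 weeks, with 0 of 21 genes called. With the list mean as a covariate the 4-week differences were -0.32 for Kcnk16 (adjusted p = 0.6025), 0.19 for Kcna2 (0.7303), 0.29 for Kcnb2 (0.7506), -0.09 for Kcnmb4 (0.833) and 0.30 for Kcng3 (0.6732). In all fits with this covariate its slope came from the spread within groups. Such fits cannot show what the list contributes where the groups compared do not overlap in it, as here. Kcnv1 stood at 9.12, 9.52 and 9.81 in DMM mice at 8 weeks, against 8.74, 8.93 and 9.06 in naive mice at 8 weeks. Without DMM replicate 1 (9.12), the lowest DMM value, its difference was 0.76 and passed in limma, with an adjusted p of 0.03464 (0.45% of all genes passed). Without any other single array of these groups no channel gene passed. The highest DMM value, 9.81, came from the array with an injury list mean of 9.86. With the list mean as a covariate no channel gene passed at 8 weeks (0.0391% of all genes). The part of that list in the Kcnv1 difference was not tested further. Averaged over the times, DMM minus naive was -0.22 ± 0.08 for Kcnk16 (adjusted p = 0.5809), and the next by p were Kcnmb4 (-0.09), Kcnv1 (0.17), Hcn3 (-0.12) and Kcna3 (-0.14), with an injury list median of -0.06.

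Between DMM and sham mice no channel gene passed at 4, 8 or 16 weeks, where 0%, 0% and 0.00489% of all genes passed. Before adjustment, 1 channel gene was lower under 0.05 at 4 weeks (1.56% of all genes), 4 were higher and 4 lower at 8 weeks (3.71% and 4.67% of all genes) and 1 was lower at 16 weeks (4.7% of all genes). The smallest p at 4 weeks was that of Kcnmb4, at -0.17 ± 0.08 (adjusted p = 0.9855), followed by the auxiliary subunit Kcne3 (0.27, near background), the intermediate-conductance channel Kcnn4 (-0.22), Kcna4 (-0.23) and Kcna6 (-0.28). At 16 weeks it was that of Kcnj8, the pore of vascular ATP-sensitive channels, at -0.23 ± 0.11 (adjusted p = 0.7604), with a mean over all arrays of 4.83, below the negative control medians. Kcnk2, a mechanosensitive K2P channel, was at 0.28 ± 0.13 (adjusted p = 0.7604), followed by Kcne2 (-0.28), Kcnip3 (-0.10) and Kcnmb1 (-0.15). At 8 weeks the spread of the lone sham array was taken from that of the other groups, and there DMM minus sham was -0.55 for Kcnk16 (adjusted p = 0.4096), 0.40 for Kcnip4, -0.29 for Kcnmb4, 0.19 for Kcnq1 and 0.30 for Kcnmb1.

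Sham against naive mice at 4 weeks gave the largest number of channel genes under an unadjusted 0.05 among the comparisons of treatments. There were 15 higher and 2 lower in sham mice, where over all genes 4.67% were higher and 11.2% lower, and none passed after adjustment (0.308% of all genes passed). The median of the 80 genes was 0.06, against -0.05 for all genes. Of the 80, 49 were higher (36.1% of all genes), among them all 7 Kcnh genes and 11 of 13 voltage-gated pore subunits, with medians of 0.24 and 0.25. Kcnb2, a delayed rectifier pore, was at 12.89, 13.16 and 12.73 in sham mice, against 12.21, 12.22 and 12.37 in naive mice (difference 0.66 ± 0.17, adjusted p = 0.07539). Kcna4, an A-type channel of small-diameter neurons, was at 9.67, 9.90 and 9.30 in sham mice, against 9.25, 9.08 and 8.99 in naive mice (0.52 ± 0.13, adjusted p = 0.07359). For Kcna2, a channel of the axon beside the node of Ranvier, the sham arrays read 13.37, 13.37 and 13.27, against 12.84, 13.00 and 12.96 for the naive arrays (0.40 ± 0.11, adjusted p = 0.08586). The groups did not overlap for these 3 genes or for Kcnma1, the pore of the large-conductance calcium-activated channel (0.34 ± 0.10, adjusted p = 0.1159). Kcnk16 went the other way, at -0.57 ± 0.14 (adjusted p = 0.0718). The injury list had a median difference of -0.60 in the same comparison, and macrophage markers -0.53 with 4 of 18 called lower. With the injury list as a covariate the differences were 0.50 for Kcnb2 (adjusted p = 0.1949), 0.50 for Kcna4 (0.1382), 0.28 for Kcna2 (0.2253), 0.44 for Kcnma1 (0.08414) and -0.31 for Kcnk16 (0.1742). At 16 weeks none passed between sham and naive mice (0.00489% of all genes), 6 were lower and 0 higher before adjustment (2.22% of all genes lower), and the smallest p were those of Kcng3 (-0.34, adjusted p = 0.3161), Kcnk18 (-0.30), Hcn3 (-0.29), Kcnj12 (-0.18) and Kcnh1 (-0.20).

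**Figure D2:**
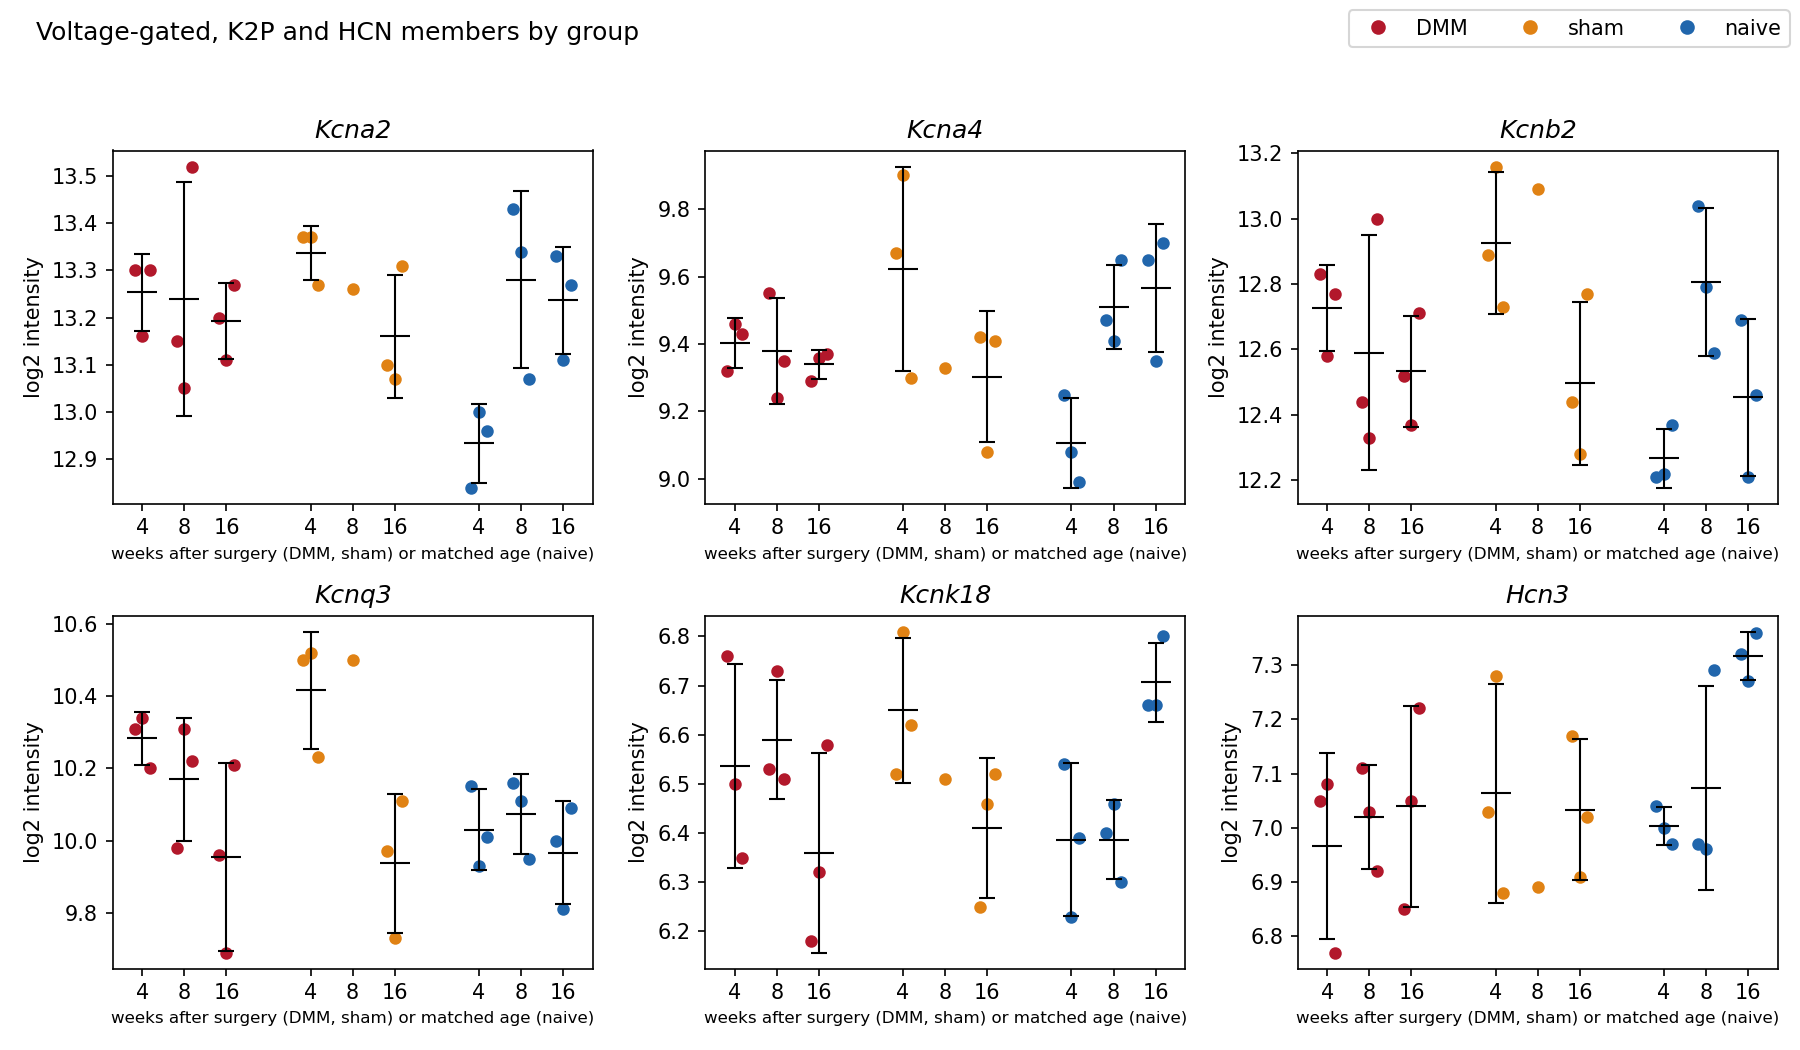
Log2 intensity (vertical axes) of Kcna2, Kcna4, Kcnb2, Kcnq3, Kcnk18 and Hcn3 on each array at 4, 8 and 16 weeks (horizontal axes) in DMM, sham and naive mice. Points are arrays, and bars are the mean and SD of groups of 3. The naive values of Kcna2, Kcna4 and Kcnb2 at 4 weeks lie below those of sham mice at 4 weeks.

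The contrast with the most channel genes past the threshold was that of age in naive mice. Its groups also differed in the injury list mean, 8.16 to 8.28 at 16 weeks and 9.67 to 9.86 at 4 weeks. Age and that list cannot be told apart in it, so a change with age in naive mice is a change between these groups. Between 16 and 4 weeks, 11 rose and 3 fell, which is 17.5% of the 80 beside 18.6% of all genes tested, so the share of channel genes was near that of the array. Their direction was 11 higher to 3 lower, while over all genes 6.01% were called higher and 12.6% lower. Without naive 4-week replicate 3, 7 channel genes passed (11.1% of all genes), without naive 16-week replicate 3 there were 8 (15% of all genes), and with array weights 27 (25.9% of all genes). Of the 80, 46 were higher (36.1% of all genes), with a median difference of 0.02, against -0.07 for all genes. In DMM mice between 16 and 4 weeks 1 channel gene rose (1.01% of all genes), and in sham mice 1 rose (0.914% of all genes). In the same comparisons the injury list had a median of -0.34 in DMM mice and -0.53 in sham mice, each with 1 of 21 called lower, and the list of 18 fibroblast and meningeal markers 0.45 and 0.50, each with none called, against -1.03 and -0.41 in naive mice. The part of these lists in the differences with time in DMM and sham mice was not tested beyond the covariate fits. With the injury list no channel gene passed in DMM (3.65% of all genes) or sham mice (0.127%). With the meningeal list Kcnmb1 alone passed in both (3.35% and 0.963% of all genes). Between 8 and 4 weeks in DMM mice none passed (0.0195% of all genes), with 5 higher under an unadjusted 0.05 (3.87% of all genes), led by Kcnq1 (0.17, adjusted p = 0.2265), Kcnq5 (0.25), Kcnmb1 (0.25), Kcnn2 (0.19) and Kcnh6 (0.43).

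The change with time was also compared between treatments directly. The DMM minus naive difference at 16 weeks less that at 4 weeks gave no call among the channel genes (0.00489% of all genes), with 2 higher and 8 lower before adjustment (7.72% and 2.79% of all genes) and a median of -0.09, against 0.04 for all genes. The genes of smallest p were Kcnj12 (-0.32 ± 0.10, adjusted p = 0.3556), Kcnk18 (-0.50), Kcna4 (-0.52), Kcnh1 (-0.31) and Kcnn1 (-0.38). At 8 less 4 weeks none passed either (0% of all genes; 8 channel genes under 0.05 before adjustment, with 8.77% of all genes), led by Kcnv1 (0.87, adjusted p = 0.4362), Kcnk16 (0.71), Kcnj16 (0.58), Kcnb2 (-0.68) and Kcna2 (-0.35). Both changes use the naive 4-week arrays, and the injury list had a median of 0.70 at 16 less 4 weeks and 1.11 at 8 less 4 weeks, with 0 of 21 called in each. With that list as a covariate the change at 8 less 4 weeks was 0.43 for Kcnv1 and 0.26 for Kcnk16, and that at 16 less 4 weeks -0.38 for Kcnj12 and -0.53 for Kcnk18. A gene called with age in naive mice and not in DMM mice is therefore not shown to differ between them.

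Kcnmb1, the auxiliary subunit best known from the large-conductance calcium-activated channel of smooth muscle, was the channel gene called between 16 and 4 weeks in each of the 3 treatments, as were 0.279% of all genes. In DMM mice its 4-week arrays read 11.15, 11.03 and 11.38, its 8-week arrays 11.34, 11.45 and 11.50, and its 16-week arrays 11.70, 11.49 and 11.50. In sham mice the 4-week arrays read 11.39, 11.26 and 11.14, the 8-week array 11.13, and the 16-week arrays 11.75, 11.64 and 11.74. In naive mice the 4-week arrays read 11.25, 11.09 and 11.16, the 8-week arrays 11.52, 11.45 and 11.39, and the 16-week arrays 11.61, 11.80 and 11.76. Every array at 16 weeks lay above every array at 4 weeks within each treatment, as they did for 2.25% of all genes, and the 1 sham array at 8 weeks lay at the 4-week level. The rise was 0.38 ± 0.09 in DMM mice (1.3-fold, adjusted p = 0.02859), 0.45 ± 0.09 in sham mice (1.36-fold, adjusted p = 0.02273) and 0.55 ± 0.09 in naive mice (1.47-fold, adjusted p = 0.0004799, SE, n = 3 each). Over 17 other settings that kept both times, the call was lost in 6 in DMM mice, in 6 in sham mice and in 0 in naive mice. Among them, leaving out DMM 16-week replicate 1 or 2 or DMM 4-week replicate 1 or 2 gave 0.30 to 0.42 (adjusted p 0.06937 to 0.1247). Leaving out sham 16-week replicate 1 or 2 or sham 4-week replicate 2 or 3 gave 0.39 to 0.48 (adjusted p 0.05899 to 0.09345). The mean of 14 vascular and mural cell markers was 7.35 to 8.04 at 16 weeks and 7.48 to 7.67 at 4 weeks in DMM mice, 7.42 to 7.70 and 7.34 to 7.42 in sham mice, and 7.53 to 7.65 and 7.35 to 7.47 in naive mice, in that order of times. The list had a median difference of 0.09 in DMM mice with 1 of 14 called higher, 0.10 in sham mice with 0 called and 0.08 in naive mice with 2 called higher. Acta2, a smooth muscle actin, was at 8.21 to 10.18 at 16 weeks, against 8.87 to 9.88 at 4 weeks, in DMM mice, 8.37 to 9.39, against 8.25 to 8.70, in sham mice and 8.88 to 9.11, against 8.43 to 8.49, in naive mice. Myh11, a smooth muscle myosin, was at 6.29 to 6.84, against 6.54 to 6.89, in DMM mice, 6.38 to 6.66, against 6.46 to 6.63, in sham mice and 6.58 to 6.66, against 6.41 to 6.50, in naive mice. The times overlapped for both genes in DMM and sham mice and not in naive mice. The part of these cells in the Kcnmb1 rise was not tested.

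**Figure D3:**
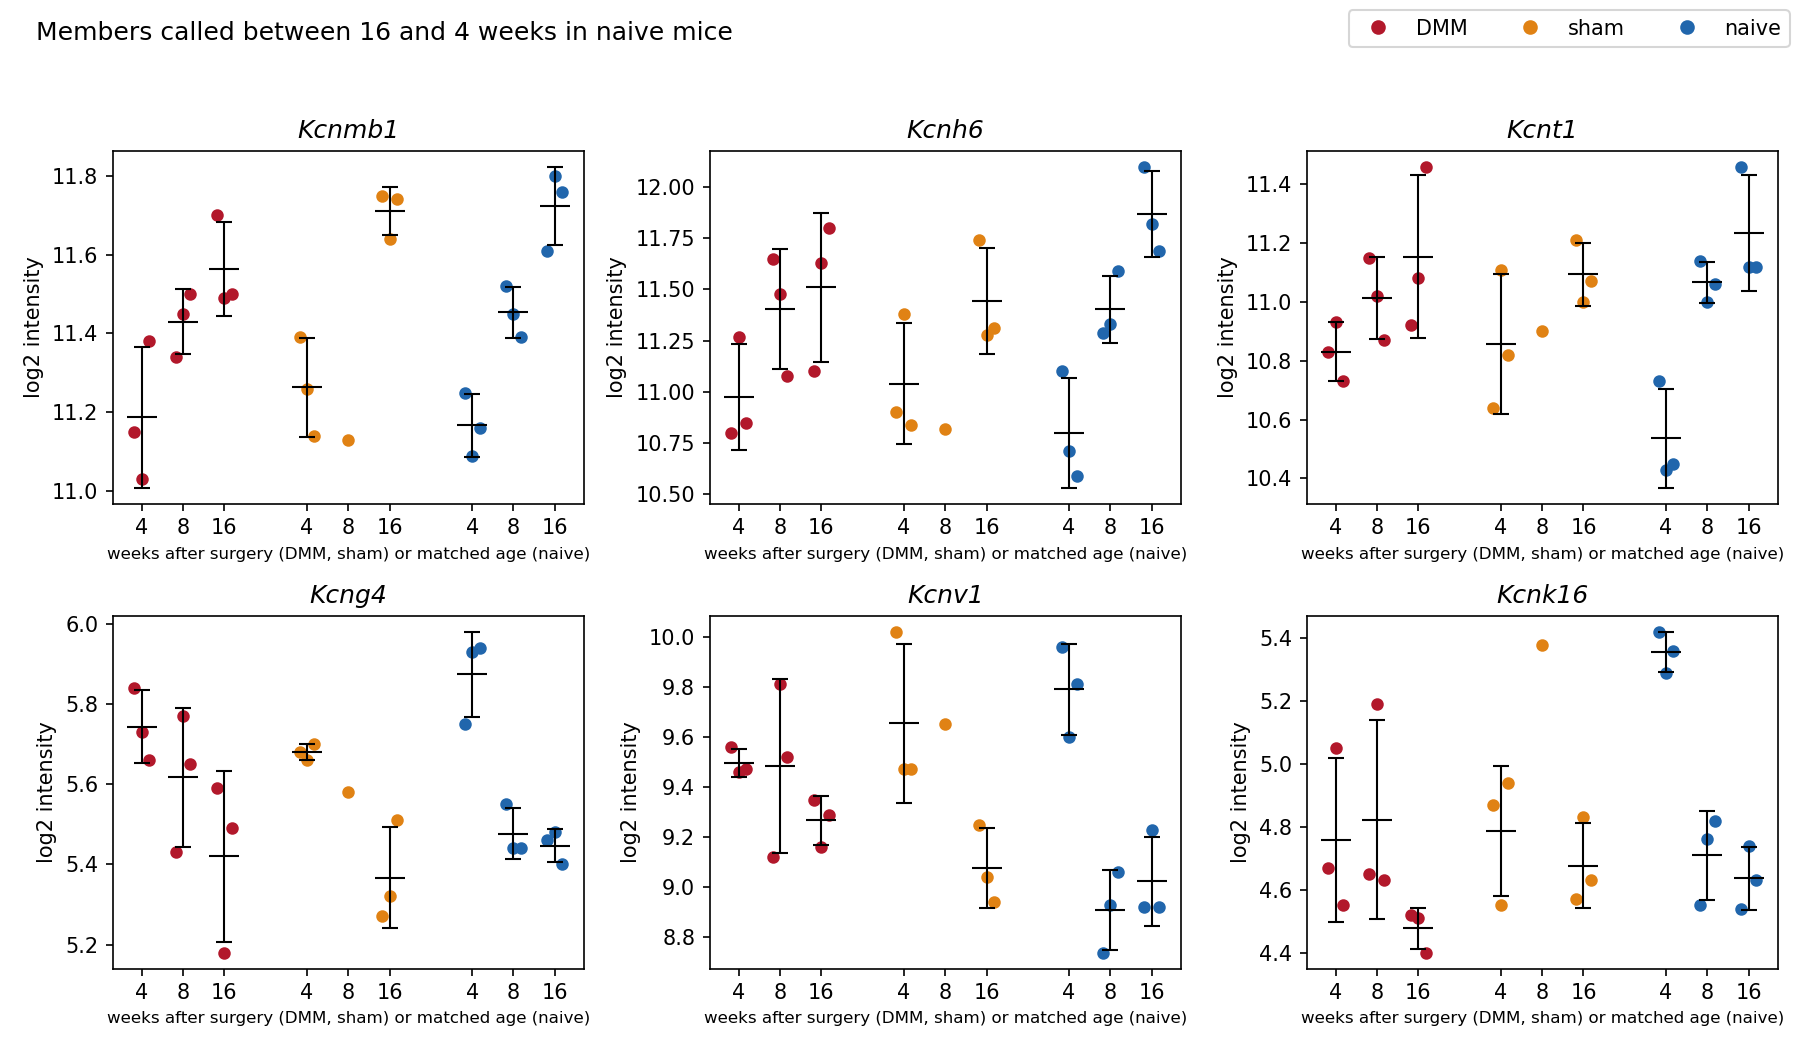
Log2 intensity (vertical axes) of Kcnmb1, Kcnh6, Kcnt1, Kcng4, Kcnv1 and Kcnk16 on each array at 4, 8 and 16 weeks (horizontal axes) in DMM, sham and naive mice. Points are arrays, and bars are the mean and SD of groups of 3. Kcnmb1 stands higher at 16 than at 4 weeks in each treatment, while Kcng4 and Kcnv1 stand lower at 16 than at 4 weeks without overlap in each.

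Kcnh6, a channel of the ether-a-go-go related group, had the largest rise in naive mice. Its arrays read 11.10, 10.71 and 10.59 for 4 weeks, then 11.29, 11.33 and 11.59 for 8 weeks, then 12.10, 11.82 and 11.69 for 16 weeks, a difference of 1.07 ± 0.20 between 16 and 4 weeks (2.09-fold, adjusted p = 0.001961). The 8-week arrays thus lay between the others. In sham mice the same difference was 0.40 ± 0.20 (adjusted p = 0.2957) and in DMM mice 0.54 ± 0.20 (adjusted p = 0.1579), with overlapping groups. The other Kcnh genes did not pass with age in naive mice, and 6 of the 7 were higher at 16 weeks (median 0.18), beside 36.1% of all genes. Among them Kcnh2, a cardiac repolarization channel also found in neurons, had its lowest group mean in naive mice at 4 weeks (9.06) and its highest in naive mice at 8 weeks (9.37). Here and in what follows, group means and their ranges are those of the 8 groups of 3 arrays, and the lone sham array at 8 weeks, which read 9.38 for Kcnh2, is left out.

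The windows of 200 bases before an annotated transcription start are shown for 3 genes. They are Kcnmb1, called in every treatment, Kcnh6, with the largest rise, and Kcng4, one of the 2 channel genes lower without overlap in every treatment. The windows are RefSeq sequences of mouse build GRCm38.p6, written 5′ to 3′ on the gene's strand, at chr11:33962813-33963012 (plus strand), chr11:106007948-106008147 (plus strand) and chr8:119635681-119635880 (minus strand). The annotated Kcnmb1 and Kcnh6 genes begin at chr11:33962955 and chr11:106008044, so both windows reach into their gene. All 3 matches marked for Kcnh6 lie inside the annotated gene. Capitals mark matches to GGGCGG, the GC box, on either strand.
Kcnmb1: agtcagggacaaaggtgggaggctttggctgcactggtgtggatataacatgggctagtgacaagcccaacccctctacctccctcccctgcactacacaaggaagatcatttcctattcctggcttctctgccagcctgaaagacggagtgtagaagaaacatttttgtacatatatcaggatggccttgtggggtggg
Kcnh6: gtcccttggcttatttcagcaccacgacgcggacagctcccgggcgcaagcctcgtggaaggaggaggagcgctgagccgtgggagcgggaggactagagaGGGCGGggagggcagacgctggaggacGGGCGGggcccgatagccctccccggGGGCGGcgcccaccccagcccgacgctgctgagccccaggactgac
Kcng4: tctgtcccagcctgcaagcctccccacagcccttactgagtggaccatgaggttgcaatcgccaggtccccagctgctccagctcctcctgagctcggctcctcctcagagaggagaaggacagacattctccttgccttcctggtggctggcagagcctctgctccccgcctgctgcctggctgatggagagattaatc
The Kcnh6 window held GGGCGG in 3 places and had a GC content of 72.5%, beside 51% for Kcnmb1 and 61% for Kcng4, which held none of the motifs searched. Promoter sequences were found for 60 of the 80 genes, with 85 windows, and were searched on both strands. GGGCGG occurred in 44.7% of these windows and in 31.0% of all 32851 windows. TATAAA occurred in 2.35% of channel gene windows (9.96% of all), TGANTCA in 4.71% (5.48%), CACGTG in 5.88% (5.26%), TGACGTCA in 0 (1.47%) and the CArG box of muscle genes in 0 (1.18%). A match describes letters in these windows and no binding.

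The 13 voltage-gated pore subunits held 3 of the genes that rose with age in naive mice, where 6.01% of all genes rose. Kcnd1 and Kcnd3, pores of the somatic A-type current that delays firing, rose by 0.47 ± 0.14 (adjusted p = 0.02389) and 0.66 ± 0.19 (adjusted p = 0.02036), and Kcna4 rose by 0.46 ± 0.13 (adjusted p = 0.02002). The calls of Kcnd1, Kcnd3 and Kcna4 were lost in 4, 5 and 5 of 17 other settings (adjusted p up to 0.2159). Kcnd3 was at 10.64, 10.15 and 10.49 at 16 weeks, against 10.11, 9.61 and 9.60 at 4 weeks, and Kcna4 at 9.65, 9.35 and 9.70, against 9.25, 9.08 and 8.99. The groups did not overlap for either. None of the 3 passed in sham or DMM mice, where the differences were -0.33 and -0.06 for Kcna4, 0.11 and 0.13 for Kcnd3 and 0.02 and 0.13 for Kcnd1. In all, 10 of the 13 were higher in naive mice at 16 weeks (median 0.19), beside 36.1% of all genes. In sham mice Kcna6, an axonal delayed rectifier, was at 9.55, 8.96 and 9.43 at 16 weeks, against 9.82, 10.16 and 9.74 at 4 weeks (-0.60 ± 0.17, adjusted p = 0.06993). In DMM mice Kcna5 was at 7.21, 7.29 and 7.19 at 16 weeks, against 7.63, 7.56 and 7.67 at 4 weeks (-0.39 ± 0.11, adjusted p = 0.06899). Neither passed in the main fit, though the groups did not overlap. In other settings of limma, Kcna6 passed with array weights (adjusted p = 0.03435) and with a limit of 6 (0.04845). Kcna5 passed with array weights (adjusted p = 0.04535). Kcna1, the partner of Kcna2 beside the node, had group means from 14.06 in naive mice at 16 weeks to 14.51 in sham mice at 4 weeks. The fast channels Kcnc1 and Kcnc4 ranged over group means by 0.27 and 0.38, with residual SDs of 0.16 and 0.29, and the lone sham array lay outside those means, at 8.02 and 10.23 (lowest Kcnc4 group mean 10.53).

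Of the 11 auxiliary subunits, 1 passed with age in naive mice, where 18.6% of all genes passed. Kcnip3, a calcium-binding partner of Kcnd channels that also represses transcription, rose by 0.20 ± 0.06 with age in naive mice (adjusted p = 0.01869), a call lost in 5 of 17 other settings. It was at 16.85, 16.94 and 16.95 at 16 weeks, against 16.73, 16.78 and 16.62 at 4 weeks, and the differences in sham and DMM mice were 0.13 and 0.04. Group means of the other Kcnd partners ranged by 0.27 for Kcnip1, 0.34 for Kcnip2 and 0.42 for Kcnip4, and those of the beta subunits Kcnab1 and Kcnab2 by 0.28 and 0.12. The lone sham array lay above the group means for Kcnip1 (7.59, highest mean 7.52) and below them for Kcnip2 (10.73, lowest 10.99), Kcnip4 (14.02, lowest 14.20) and Kcnab1 (12.30, lowest 12.36). In naive mice 6 of the 11 were higher at 16 weeks and 5 lower (median 0.01), beside 36.1% of all genes higher.

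The silent subunits, which form no channel alone and modify Kcnb pores, held genes that moved in both directions with age in naive mice. Kcns1, whose human variants have been associated with pain, rose by 0.51 ± 0.17 (adjusted p = 0.04293) and Kcng3 by 0.43 ± 0.13 (adjusted p = 0.02437). Their calls were lost in 9 and 4 of 17 other settings (adjusted p up to 0.3731 and 0.1647). Kcnv1 fell by 0.77 ± 0.16 (adjusted p = 0.003343) and Kcng4 fell by 0.42 ± 0.10 (adjusted p = 0.005927). Kcng4 was at 5.46, 5.48 and 5.40 in naive mice at 16 weeks, against 5.75, 5.93 and 5.94 at 4 weeks, and Kcnv1 at 8.92, 9.23 and 8.92, against 9.96, 9.60 and 9.81. The mean of Kcng4 over all arrays, 5.58, lay little above the negative control medians (5.06 to 5.35). On DMM 16-week replicate 2 Kcng4 was at 5.18, below the control median of that array, 5.35, while on the other arrays it lay above theirs. In sham mice the differences were -0.31 ± 0.10 for Kcng4 (adjusted p = 0.09482) and -0.58 ± 0.16 for Kcnv1 (adjusted p = 0.06529), and in DMM mice -0.32 ± 0.10 (adjusted p = 0.07666) and -0.23 ± 0.16 (adjusted p = 0.4619). In other settings of limma, Kcnv1 in sham mice passed with array weights (adjusted p = 0.03318), a limit of 6 (0.04528) and quantile normalization (0.04982). Kcng4 in DMM mice passed without DMM 16-week replicate 1 (adjusted p = 0.03389). Kcng4 and Kcnv1 were the 2 channel genes with every 16-week array below every 4-week array in all 3 treatments, as were 2.05% of all genes. Kcns3 and Kcng2 ranged over group means by 0.27 and 0.07, and the lone sham array was at 5.71 for Kcng2, above the highest mean (5.69).

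Of the Kcnq channels of the M current, Kcnq3 was at 9.97, 9.73 and 10.11 in sham mice at 16 weeks, against 10.50, 10.52 and 10.23 at 4 weeks (-0.48 ± 0.13, adjusted p = 0.05709). The groups did not overlap, and the call was gained in 4 other settings (adjusted p 0.02564 to 0.04682). In DMM mice Kcnq3 was at 9.96, 9.69 and 10.21 at 16 weeks, against 10.31, 10.34 and 10.20 at 4 weeks, with overlap. Kcnq5 had its lowest group mean in naive mice at 4 weeks (9.65) and its highest in DMM mice at 8 weeks (9.98), while the lone sham array was at 10.12. No Kcnq gene passed in any comparison.

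Among the calcium- and sodium-activated channels, Kcnt1, a sodium-activated channel that limits firing of nociceptors in mice, rose by 0.70 ± 0.14 with age in naive mice (1.62-fold, adjusted p = 0.002305). It was at 11.46, 11.12 and 11.12 at 16 weeks, against 10.73, 10.43 and 10.45 at 4 weeks. In sham and DMM mice the differences were 0.24 ± 0.14 (adjusted p = 0.372) and 0.32 ± 0.14 (adjusted p = 0.2055). Kcnn2, a small-conductance channel of the afterhyperpolarization, rose by 0.23 ± 0.08 (adjusted p = 0.04729) and lost its call in 9 of 17 other settings. The paralogs Kcnn1 and Kcnt2 did not pass, with group means ranging by 0.28 and 0.21, and Kcnn4 and Kcnmb4 ranged by 0.30 each. The lone sham array was below the group means for Kcnn1 (6.61, lowest mean 6.73) and above them for Kcnt2 (8.70, highest 8.66) and Kcnmb4 (6.69, highest 6.66). Of the 12 genes of this family 6 were higher and 6 lower in naive mice at 16 weeks (median -0.00), beside 36.1% of all genes higher.

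Among the inward rectifiers, Kcnj12 rose by 0.33 ± 0.07 with age in naive mice (adjusted p = 0.005199). It was at 6.39, 6.45 and 6.56 at 16 weeks, against 6.17, 6.13 and 6.13 at 4 weeks, and the call was lost in 0 of 17 other settings. In sham and DMM mice the differences were 0.03 and 0.01. Kcnj3, a G-protein-gated channel, had group means from 10.44 in naive mice at 4 weeks to 10.65 in naive mice at 16 weeks, with the lone sham array at 10.43. Kcnj8, near background, was at 5.07, 5.22 and 4.98 in sham mice at 16 weeks, against 4.76, 4.79 and 4.67 at 4 weeks (0.35 ± 0.11, adjusted p = 0.09335).

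The 12 K2P channels held 1 gene that fell with age in naive mice, where 12.6% of all genes fell. Kcnk16, best known from the pancreas, was at 4.54, 4.74 and 4.63 at 16 weeks, against 5.42, 5.29 and 5.36 at 4 weeks (-0.72 ± 0.14, adjusted p = 0.002396). Its mean over all arrays, 4.80, lay below the negative control medians. The differences in sham and DMM mice were -0.12 and -0.28, and neither passed. Group means of other K2P genes ranged by 0.25 for Kcnk1, 0.23 for the acid-sensitive Kcnk3, 0.28 for Kcnk2, 0.17 for Kcnk10 and 0.53 for Kcnk12. The lone sham array lay below the group means for Kcnk3 (7.46, lowest mean 7.60), Kcnk2 (7.20, lowest 7.26) and Kcnk12 (7.05, lowest 7.15). No HCN gene passed in any comparison. Hcn2, the subunit most tied to inflammatory and neuropathic pain in mice, had group means from 10.80 in naive mice at 4 weeks to 11.06 in sham mice at 4 weeks, with a residual SD of 0.23. Hcn4 ranged from 7.26 in sham mice at 16 weeks to 7.41 in sham mice at 4 weeks. Kcnq1ot1, the noncoding transcript from the Kcnq1 locus, was at 0.43 ± 0.16 between 16 and 4 weeks in DMM mice (adjusted p = 0.1476). Its difference was similar in naive mice, at 0.41 (adjusted p = 0.07381), and was 0.09 in sham mice (adjusted p = 0.8066).

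**Figure D4:**
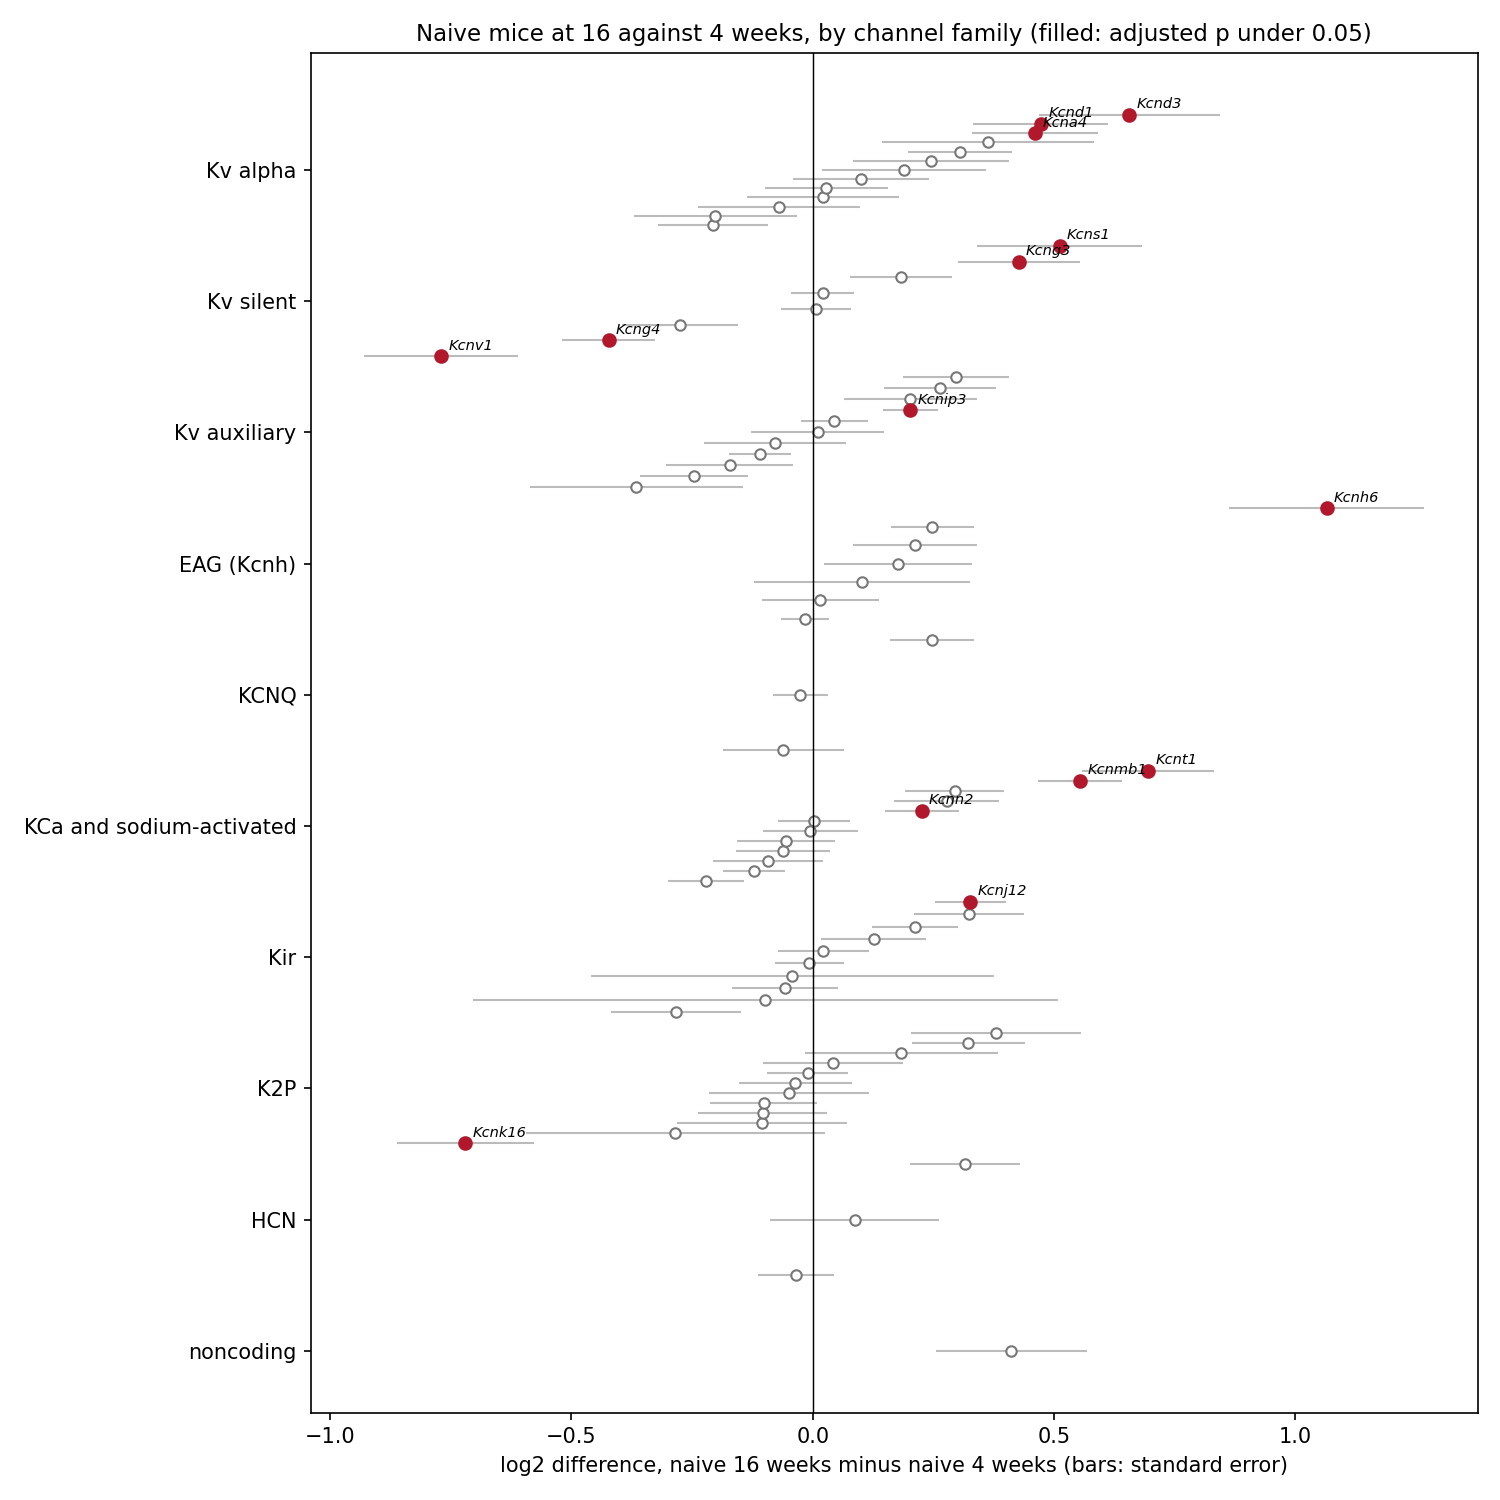
Log2 difference of each channel gene in naive mice, 16 minus 4 weeks (horizontal axis), by family (vertical axis), with standard errors as bars. Filled points passed the test. The 11 genes that rose lie in the families of pore, silent and auxiliary voltage-gated subunits, Kcnh, calcium- and sodium-activated channels and inward rectifiers, and the 3 that fell are 2 silent subunits and 1 K2P gene.

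The injury list fell with age in naive mice, with a median difference of -1.03 and 17 of 21 genes called lower, and macrophage markers fell with 13 of 18 called (median -0.59). The list mean was 8.16 to 8.28 on the naive arrays at 16 weeks and 9.67 to 9.86 on those at 4 weeks. With the list mean as a covariate, 8 channel genes passed in place of 14, all higher, where 8.35% of all genes passed in place of 18.6%. The list did not overlap between these groups, and its slope came from the spread within groups. A call kept or lost in that fit therefore does not show what the list contributes. Kcnd1, Kcnh6, Kcnj12, Kcnmb1 and Kcnn2 were still called, with differences of 0.83, 1.29, 0.43, 0.50 and 0.40, and Kcnk4, Kcnma1 and Kcnq5 were called in that fit and not without the covariate. Kcnk16 was at -0.17 (adjusted p = 0.4787), Kcnv1 at -0.24 (0.4495), Kcnt1 at 0.67 (0.05602) and Kcng4 at -0.31 (0.1896) in that fit. Against the naive arrays at 8 weeks, in place of 4 weeks, no channel gene passed at 16 weeks in limma (0.0195% of all genes), with 6 under an unadjusted 0.05 (11.8% of all genes). Kcnmb1 was at 0.27 ± 0.09 there (adjusted p = 0.2097), and Kcnv1 and Kcns1 turned to 0.11 and -0.13.

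A set of 3 channel genes, chosen after their values were seen, had the widest spread between arrays of a group. Kcnj13, an inward rectifier of epithelia such as choroid plexus, was at 10.62, 11.39 and 7.80 in DMM mice at 16 weeks, against 8.99, 9.51 and 8.57 in naive mice at 16 weeks. Kcnj2, a strong inward rectifier, was at 7.08, 7.84 and 5.27, against 5.97, 6.62 and 5.82. Kcnk5, a K2P channel of epithelia, was at 7.09, 7.88 and 5.89, against 6.46, 7.03 and 6.64. In each, DMM replicates 1 and 2 were highest and replicate 3 lowest. The mean of 18 fibroblast and meningeal markers was 10.76, 11.32 and 9.14 on the same DMM arrays, against 9.41, 10.02 and 9.44 on the naive arrays. With all arrays, DMM minus naive was 0.91 ± 0.61 for Kcnj13 (adjusted p = 0.6798), 0.60 ± 0.42 for Kcnj2 (0.6947) and 0.24 ± 0.31 for Kcnk5 (0.8571). Without DMM replicate 3 it was 1.98 ± 0.41 (0.02345), 1.33 ± 0.29 (0.02796) and 0.78 ± 0.22 (0.08889), so 2 channel genes passed where 1.59% of all genes did. With the marker mean as a covariate over all arrays it was -0.17 ± 0.25, -0.10 ± 0.23 and -0.23 ± 0.21.

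**Figure D5:**
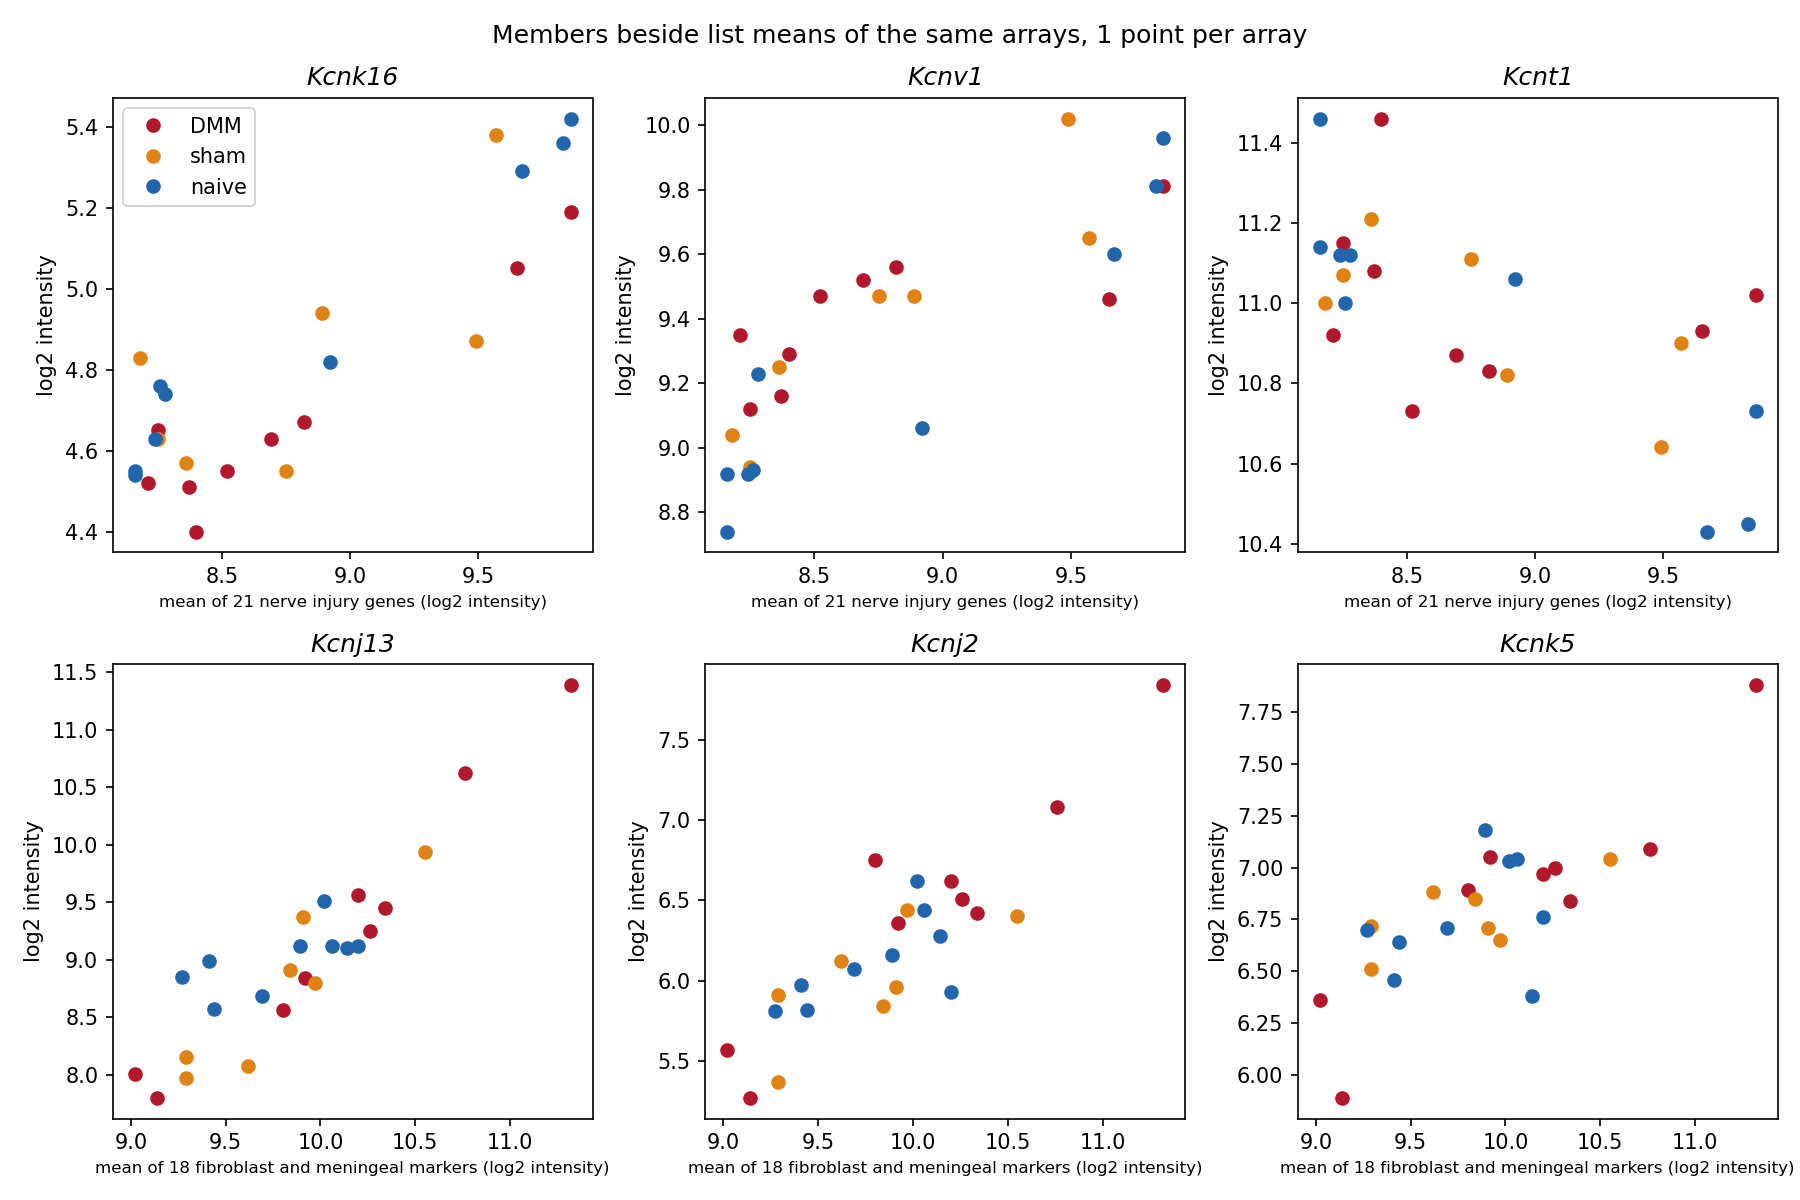
Log2 intensity (vertical axes) of Kcnk16, Kcnv1 and Kcnt1 beside the mean of 21 nerve injury genes, and of Kcnj13, Kcnj2 and Kcnk5 beside the mean of 18 fibroblast and meningeal markers (horizontal axes, log2 intensity). Points are the 25 arrays, coloured by treatment. The DMM arrays at 16 weeks stand near both ends of the lower panels, at marker means of 9.14, 10.76 and 11.32.

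Genes listed as partners of these channels were 33 auxiliary proteins, pumps, transporters and others (such as Rest, Ano1 and Nedd4l), of which 23 were tested. With age in naive mice 5 rose and 1 fell, where 6.01% of all genes rose and 12.6% fell. Lingo1, a partner of the large-conductance channel, rose by 0.29 ± 0.07 (adjusted p = 0.009121), Nedd4l, a ubiquitin ligase acting on channels, by 0.47 ± 0.12 (adjusted p = 0.0137) and Abcc8, a sulfonylurea receptor, by 0.36 ± 0.10 (adjusted p = 0.0159). In sham mice 1 fell with time (0.826% of all genes), Adam22, a partner of Kcna channels on the axon (-0.38 ± 0.09, adjusted p = 0.03846), followed by Amigo1, a partner of Kcnb channels (-0.34, 0.05775), and Lrrc55 (-0.63, 0.07359). In DMM mice none passed, with 4 under an unadjusted 0.05 (18.3% of all genes), and Amigo1 (-0.30, 0.07491), Adam22 (-0.30, 0.07922) and Lgi1 (0.32, 0.2182) had the smallest p. Between DMM and sham mice at 4 weeks 21 of the 23 were lower and 2 higher, where 53.9% of all genes were higher, and none passed, with 1 under an unadjusted 0.05. Between DMM and naive mice none passed at 4, 8 or 16 weeks, where 2, 1 and 1 were under an unadjusted 0.05 (8.8%, 8.45% and 8.76% of all genes), and Lingo1 had the smallest p at 16 weeks (-0.24 ± 0.07, adjusted p = 0.4048).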

How the data were processed

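The deposited values are log2 intensities, 1 per probe set. The log2 scale was inferred from the range, 2.23 to 19.70. How the authors summarized and normalized probes was not given in the sources used here. Labelling followed the manufacturer's standard protocol, per the labels. Of 72685 probe sets, 30604 carried 1 gene symbol in the platform annotation and 2146 carried several. For 355 genes with several probe sets, that of highest mean was used. None of these was a channel gene. All 25 arrays were fitted with 1 mean per group in limma 3.58.1 (R 4.3.3), two-sided, with 16 residual degrees of freedom. The number of arrays limits precision, and residual SDs had a median of 0.152 for the channel genes and 0.121 for all genes.

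Each of 15 comparisons names every gene past the threshold and the 5 of smallest p. A panel of 44 symbols was named whatever its values, of which 39 were among the 80. Partner genes are the 3 of smallest p where described. Members and lists were chosen with earlier results of these data known. Alternatives were brightness limits, probe set averaging, quantile and cyclic loess normalization, the replicate block, an intensity trend, array weights, injury and meningeal covariates, fits of the compared arrays alone and leaving out each array. The comparison with 8 in place of 4 weeks was added after seeing the data. Promoters came from the RefSeq table for GRCm38.p6.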

Additional observations from a re-analysis of the deposited data

How the results depend on the processing

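Over 84 pairs of a named gene and a comparison, 1448 of 1538 recomputed values kept direction and side of the threshold, 70 lost a call, 17 gained one and 3 turned (Kcnip3 in DMM against sham mice at 16 weeks, 0.056 under quantile normalization, and in naive mice with 8 in place of 4 weeks Kcns1, -0.13, and Kcnv1, 0.11). The cause was not tested.

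With age in naive mice 14 channel genes were called in the main fit (18.6% of all genes). There were 27 with array weights (25.9% of all genes), 25 with quantile normalization (17.1%) and 25 with cyclic loess (17.3%). There were 8 with the injury covariate (8.35%) and 0 with 8 in place of 4 weeks (0.0195%). Of the calls, 78.6% were higher in the main fit, 88% with quantile normalization or cyclic loess and 100% with the injury covariate. Leaving out an array gave 7 to 16 (7 without naive 4-week replicate 3, with 11.1% of all genes, and 16 without replicate 1, with 13.4%). In sham mice (1 called, 1.74% of all genes) there were 4 with array weights (4.44% of all genes) and 4 with a limit of 6 (4.56%, 58 channel genes tested). Quantile normalization gave 3 (2.23%) and cyclic loess 2 (2.29%). The injury covariate (0.127%) and the compared arrays alone (0%) gave 0, and leaving out an array gave 0 to 1. In DMM mice (1 called, 2.74% of all genes) there were 2 with array weights (4.29%). There were 0 with the injury covariate (3.65%), the compared arrays alone (0.0195%) or 8 in place of 4 weeks (0%), and 0 to 2 without an array. Sham against naive at 4 weeks gave 5 with array weights (3.02% of all genes). DMM against naive gave 0 to 2 without an array at 16 weeks (share given above) and 0 to 1 at 8 weeks (0.45% of all genes in the fit with 1).

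Median differences moved by more than 0.036, the SD of array medians, as follows. With age in naive mice it was 0.084 with cyclic loess, 0.093 with quantile normalization and 0.183 with a limit of 6, and for sham against naive at 4 weeks 0.097, 0.10 and 0.101 in that order and 0.02 with the meningeal covariate. The change of DMM minus naive was -0.13, -0.129 and -0.163 in that order at 16 less 4 weeks, and at 8 less 4 weeks -0.03 with array weights, -0.027 with cyclic loess and -0.064 with a limit of 6. DMM against naive at 4 weeks was 0.058 with that limit and DMM against sham at 16 weeks -0.026 with array weights. Leaving out an array gave medians of 0.004 to 0.076 with age in naive mice, -0.094 to -0.029 in sham mice and -0.066 to -0.012 in DMM mice. It gave 0.016 to 0.054 for DMM against naive at 4 weeks, -0.103 to -0.048 at 16 weeks, -0.037 to 0.016 for DMM against sham at 16 weeks, and -0.042 to 0.03 for the change at 8 less 4 weeks.

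Equal replicate numbers carry no stated pairing. Deviations of 21 equal-numbered pairs correlated at -0.357 to 0.319, with 8 over 0.1. The replicate block gave 13 calls with age in naive mice (17.3% of all genes) and 1 each in sham (0.968%) and DMM mice (2.64%).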
